A study of Mus musculus with 4 samples.

Results

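The barcodes described here are the shallow ones without T cell transcripts in single-cell RNA-seq of mouse tumours. They were all barcodes with fewer than 3000 unique molecular identifiers (UMIs, 1 per captured transcript) and 0 UMIs over 7 T cell genes, namely Cd3e, Cd3d and Cd3g of the CD3 complex and the receptor constant genes Trac, Trbc1, Trbc2 and Trdc. The barcodes were thus selected on 2 measured values, their total UMIs and their UMIs of these genes. The rule found 952 of 18778 barcodes. The library of FOXP3 humanized mice gave 518 of its 11087 barcodes, a share of 4.67% (95% exact binomial interval 4.29% to 5.08%), and the library of wild-type mice gave 434 of its 7691, a share of 5.64% (5.14% to 6.18%). They are called shallow T-free barcodes below, and were set against the 9547 humanized and 6610 wild-type barcodes with at least 5000 UMIs and 0 UMIs of the same genes, called deep T-free barcodes.

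The tumours were grown from MC38, a mouse colon carcinoma line, placed into untreated FOXP3 humanized or wild-type mice of 10 weeks and taken on day 20. Immune cells of the tumours were enriched by Percoll gradient before capture in droplets, and the submitters label both libraries as immune cells. The sources used here do not give which segment of Foxp3 was replaced, how many mice a library pooled, or their strain and sex. There was 1 cDNA library per genotype, so no difference between genotypes could be tested, and each interval printed covers counting error only. The oligo libraries were not used here.

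Droplet methods give every barcode the transcripts of the cell it caught together with some free RNA from broken cells. A barcode with few UMIs can hold a small cell such as a lymphocyte, part of a larger cell, or free RNA. Mitochondrially encoded transcripts and RNA kept in the nucleus, such as Malat1, are commonly read as signs of how complete a captured cell was. Ptprc encodes CD45, carried by nearly all leukocytes. Lyz2 encodes lysozyme of myeloid cells, Il1b an inflammatory cytokine of the same cells, H2-Aa a chain of MHC class II on antigen-presenting cells, Cd79a a part of the B cell receptor and Igkc the kappa light chain of antibodies.

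Shallow T-free barcodes had a median of 2000 UMIs and 960.5 genes in the humanized library, and 1821 UMIs and 908.5 genes in the wild-type library. Deep T-free barcodes had 12468 UMIs and 2978 genes in the humanized library, and 16815 UMIs and 3725 genes in the wild-type library. The lowest total was 1001 UMIs in both libraries. The shallow T-free barcodes together held 1040019 UMIs in the humanized and 816144 in the wild-type library, or 0.704% and 0.608% of all UMIs. With every barcode thinned to 1000 UMIs, the median number of genes was 575 in shallow and 537 in deep T-free barcodes of the humanized library, and 581 in shallow and 568 in deep ones of the wild-type library. The 2 libraries share 1551 barcode names. These names are running numbers within each library, so a shared name does not mark a shared cell.

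The share of barcodes without T cell transcripts changed with depth. It was lowest, 64.6% in the humanized and 78.8% in the wild-type library, between 1001 and 1500 UMIs. Just inside the limit, from 2500 to 3000 UMIs, 143 of 151 humanized barcodes (94.7%) and 93 of 107 wild-type barcodes (86.9%) were T-free. Just outside it, from 3000 to 3500 UMIs, these were 118 of 128 (92.2%) and 91 of 95 (95.8%). A T cell can by chance have 0 UMIs of the 7 genes in a shallow barcode. The deep T-free barcodes of the humanized library began at a step: there were 132 T-free barcodes from 4500 to 5000 UMIs and 268 from 5000 to 5500 UMIs, against 76 and 80 in the same bands of the wild-type library. Ribosomal protein transcripts held 31.6% of UMIs below and 36.8% above this step in the humanized library, and 31.0% and 32.0% in the wild-type library. How barcodes were called as cells is not given in the labels, so what made the step was not tested.

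**Figure D1:**
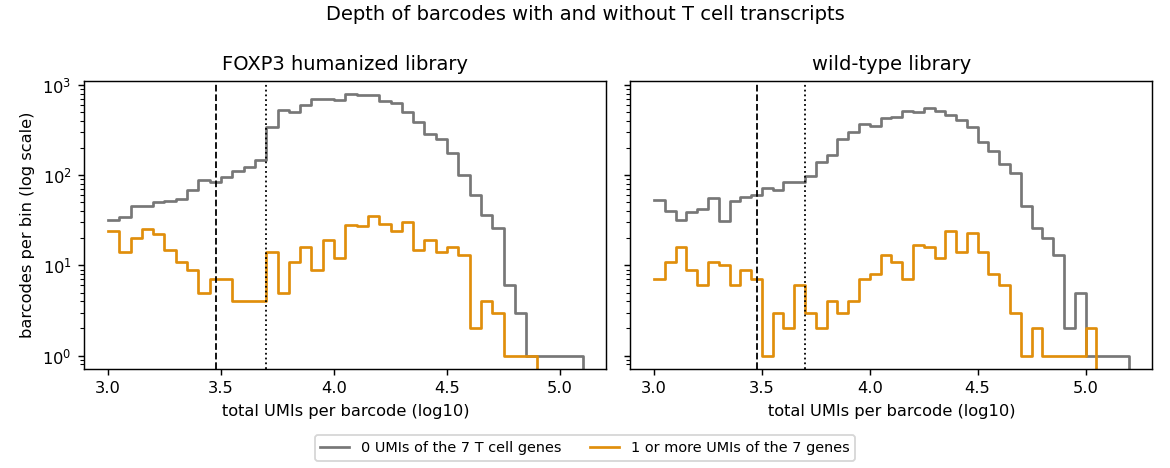
Number of barcodes (log scale) by total UMIs (log10, bins of 0.05) for barcodes with 0 UMIs of the 7 T cell genes (grey) and with 1 or more (orange), humanized library left and wild-type right. The dashed line marks 3000 UMIs and the dotted line 5000; barcodes with T cell UMIs form a separate group below 3000 UMIs, of 148 in the humanized and 89 in the wild-type library.

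The name "shallow barcodes without T cell transcripts" came with 4 markers of myeloid, antigen-presenting and B cells, and most of the barcodes had none of them. Over Lyz2, H2-Aa, Il1b, Igkc and Cd79a, 22 of 518 humanized shallow T-free barcodes had a UMI (4.25%, 2.68% to 6.36%), and 5 of 434 wild-type ones did (1.15%, 0.375% to 2.67%). With every barcode thinned to 1000 UMIs the share was 2.51% in shallow and 1.15% in deep T-free barcodes of the humanized library, and 0.691% in shallow and 0.363% in deep ones of the wild-type library, against 11.9% of humanized and 3.77% of wild-type deep ones before thinning. Cd79a had 0 UMIs in both libraries, which allows a share of up to 0.710% of humanized and 0.846% of wild-type shallow T-free barcodes with a UMI. Ptprc had 4 UMIs in 3 humanized barcodes and 2 UMIs in 2 wild-type barcodes. Foxp3, which encodes the factor that defines regulatory T cells, had 0 UMIs in both. The rule took out barcodes with T cell transcripts, so nothing is read from the 0 of Foxp3. The transcripts of most of these barcodes thus went against the label of immune cells, and the barcodes are called by the rule alone.

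A list of 15 genes common to leukocytes was above its deep level in both libraries, and most of its UMIs came from 1 gene. Its summed level was 249 CPM (UMIs scaled to a total of 1e6; 95% exact Poisson interval 220 to 281) in shallow and 136 CPM in deep T-free barcodes of the humanized library. In the wild-type library it was 179 CPM (151 to 210) in shallow and 130 CPM in deep ones. Shallow barcodes with T cell UMIs, which are leukocytes of a similar depth, had 7281 CPM in the humanized and 9284 CPM in the wild-type library. Of the UMIs of the list in shallow T-free barcodes, 155 of 259 in the humanized and 116 of 146 in the wild-type library came from Arhgdib, which was about as high in deep T-free barcodes, with a log2 ratio of shallow over deep of 0.19 (-0.05 to 0.42) in the humanized and 0.18 (-0.10 to 0.44) in the wild-type library. Without Arhgdib the list had 104 UMIs and 100.0 CPM in shallow against 742 UMIs and 5.38 CPM in deep T-free barcodes of the humanized library (log2 ratio 4.22, 3.91 to 4.52). For the wild-type library these were 30 UMIs and 36.8 CPM in shallow against 615 UMIs and 4.85 CPM in deep ones (2.92, 2.34 to 3.45). The 14 other genes of the list were thus higher in sum in shallow than in deep barcodes, at a level far below that of shallow barcodes with T cell UMIs. The UMIs were not spread evenly. With both libraries pooled, 15 barcodes (subcluster 6 below) held 120 UMIs of the full list, at 5156 CPM. In subclusters 1 to 5 the full list, Arhgdib included, came to between 67.8 and 219 CPM.

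Across genes, the shallow T-free barcodes had nearly the profile of the deep ones. Of 4995 genes with at least 20 UMIs in the shallow T-free barcodes of each library, or that many expected from the deep ones, 4957 in the humanized library (99.2%) and 4918 in the wild-type library (98.5%) lay within 2-fold of the deep level. Pearson's r of log2(CPM + 1) between shallow and deep T-free barcodes, across these genes and as a description only, was 0.981 in the humanized and 0.976 in the wild-type library. Against the shallow barcodes with T cell UMIs it was 0.706 in the humanized and 0.655 in the wild-type library. The median log2 ratio of shallow over deep was 0.21 in the humanized and 0.13 in the wild-type library, so the ratios below are to be read against these shifts. Depth chose both sets of barcodes, so their contrast is given without a test.

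**Figure D2:**
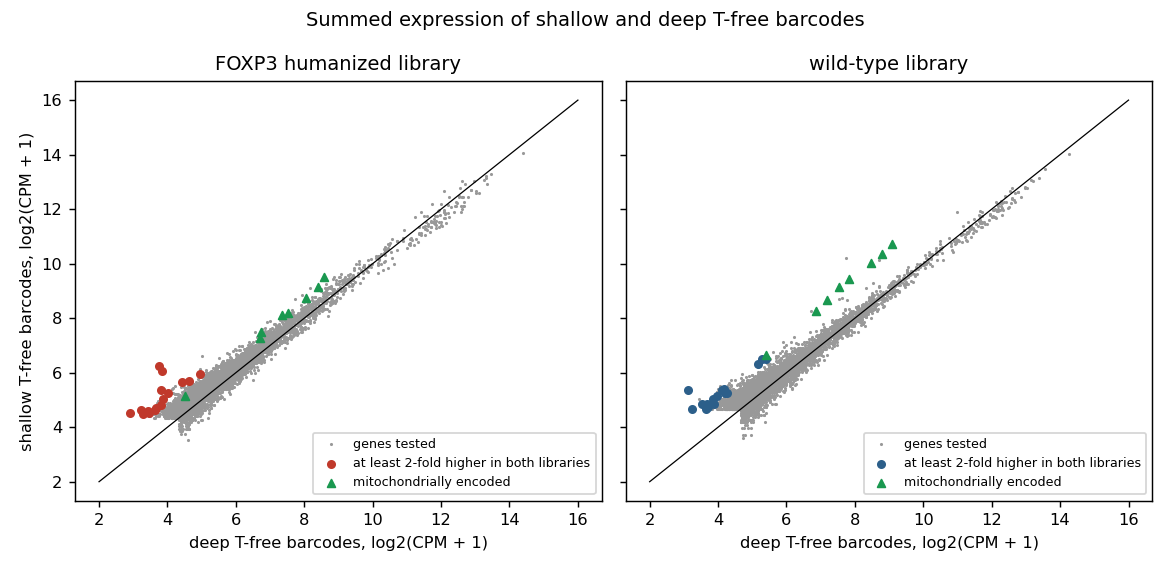
Summed level of 4995 genes in shallow T-free barcodes (vertical) against deep T-free barcodes (horizontal), both as log2(CPM + 1), humanized library left and wild-type right. Coloured points are the 16 genes at least 2-fold higher in both libraries, green triangles are mitochondrially encoded genes, and the line marks equal levels; the triangles lie above the line, farther so in the wild-type library.

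Genes were counted as apart when the log2 ratio was past 1 in both libraries and both counting intervals excluded 0. By this rule 16 genes were higher in shallow T-free barcodes, 0.32% of those measured, and 0 were lower, 0%. The 14 of them with an established name include Col1a1, a chain of type I collagen, with 42 UMIs and 40.4 CPM in shallow against 12.9 CPM in deep T-free barcodes of the humanized library (log2 ratio 1.64, 1.16 to 2.08). In the wild-type library Col1a1 had 33 UMIs and 40.4 CPM in shallow against 7.78 CPM in deep ones (2.38, 1.83 to 2.88), and 54.5% of those UMIs lay in 1 barcode. Igfbp7, an insulin-like growth factor binding protein made by vessels and stroma, had a ratio of 2.31 in the humanized library, with 57.4% of its 68 UMIs in 1 barcode, and 1.11 in the wild-type library. Single barcodes thus carried much of the Col1a1 sum in the wild-type and of the Igfbp7 sum in the humanized library.

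Kansl1, of the NSL histone acetyltransferase complex, had 63 UMIs in 56 humanized and 74 UMIs in 55 wild-type shallow T-free barcodes, with log2 ratios of 1.03 (0.64 to 1.38) and 1.12 (0.77 to 1.45). Csnk1g1, a casein kinase, had 2.58 in the humanized library, with 30.8% of its 78 UMIs in 1 barcode, and 1.28 in the wild-type library. Fam222b had 1.78 in the humanized and 1.53 in the wild-type library. Dennd1b, an exchange factor for Rab GTPases, Atxn1, the ataxin 1 gene, Akap13, an anchoring protein for protein kinase A, and Ext1, which polymerises heparan sulphate, lay between 1.03 and 1.54 in both libraries. So did Sox5, a transcription factor, Dleu2, a noncoding host of miRNAs, Stard13, Cdip1, a p53 target, and D5Ertd579e. The remaining 2, Gm11290 and Gm19951, are predicted genes. Every one of the named 14 had between 20 and 78 UMIs in the shallow T-free barcodes of a library. All of them but Kansl1 passed the limit of 20 UMIs only through the shallow T-free barcodes, where they are high. The count of higher genes depended on a few barcodes: 4 genes were higher without barcodes over 1% mitochondrial UMIs, and 3 when each gene's highest shallow barcode was left out.

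Mitochondrially encoded transcripts, which encode subunits of the respiratory chain, made up more of the UMIs in shallow T-free barcodes. Their summed share was 0.267% in shallow and 0.158% in deep T-free barcodes of the humanized library, and 0.622% in shallow and 0.210% in deep ones of the wild-type library. The medians per barcode were 0.0857% in shallow and 0.0932% in deep ones of the humanized library, and 0.156% in shallow and 0.138% in deep ones of the wild-type library. The upper quartiles were 0.246% in shallow and 0.193% in deep ones of the humanized library, and 0.420% in shallow and 0.274% in deep ones of the wild-type library. mt-Co1, of cytochrome c oxidase, had 722 CPM in shallow and 384 CPM in deep humanized barcodes (log2 ratio 0.91, 0.80 to 1.01), and 1698 CPM in shallow and 547 CPM in deep wild-type barcodes (1.63, 1.56 to 1.71). mt-Atp6, of ATP synthase, had log2 ratios of 0.73 in the humanized and 1.56 in the wild-type library. Of the 8 genes of the list with enough UMIs, 0 passed the rule in both libraries, with median log2 ratios of 0.71 in the humanized and 1.55 in the wild-type library.

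Barcodes over 1% mitochondrial UMIs numbered 29 of 518 humanized shallow T-free barcodes (5.60%, 3.78% to 7.94%) and 76 of 9547 humanized deep ones (0.796%). In the wild-type library they numbered 63 of 434 shallow (14.5%, 11.3% to 18.2%) and 84 of 6610 deep ones (1.27%). The 29 and the 63 held 48.5% and 74.2% of all mitochondrial UMIs of the shallow T-free barcodes in their libraries. Without such barcodes, the summed share was 0.145% in shallow and 0.151% in deep T-free barcodes of the humanized library, and 0.183% in shallow and 0.198% in deep ones of the wild-type library. These barcodes were left out by the same share that is compared, so nothing is read from the remainder. The highest single share was 9.97% in the humanized and 18.6% in the wild-type library. The share of T-free barcodes over 1% was highest between 1001 and 1500 UMIs, at 8.27% in the humanized and 22.7% in the wild-type library, and was 1.69% and 3.30% between 3000 and 3500 UMIs.

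The same barcodes were high in Malat1, Cmss1 and Gphn. Malat1, a nuclear noncoding RNA, had 552 CPM in shallow and 284 CPM in deep T-free barcodes of the humanized library (log2 ratio 0.96, 0.84 to 1.08), and 1109 CPM in shallow and 413 CPM in deep ones of the wild-type library (1.43, 1.33 to 1.52). Neat1, the scaffold of nuclear paraspeckles, had ratios of 0.56 in the humanized and 1.12 in the wild-type library. Among shallow T-free barcodes, those over 1% mitochondrial UMIs had 1399 CPM of Malat1 and the other ones 504 CPM in the humanized library, and 2582 CPM and 902 CPM in the wild-type library. Outside the high mitochondrial group Malat1 was therefore still above its level in deep T-free barcodes. Cmss1, a gene of a putative ribosomal small subunit protein, had 6403 CPM in the high mitochondrial group and 963 CPM in the other shallow T-free barcodes of the humanized library, and 14137 CPM and 2347 CPM in the wild-type library. Gphn, which encodes the synaptic scaffold gephyrin, had 825 CPM in the high group and 202 CPM in the other humanized ones, and 4297 CPM and 756 CPM in the wild-type library. Cmss1 and Gphn were chosen after their values were seen.

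Transcripts of ribosomal proteins ran the other way. They held 28.2% of UMIs in shallow and 34.9% in deep T-free barcodes of the humanized library, and 28.3% in shallow and 32.9% in deep ones of the wild-type library. Of 81 ribosomal protein genes with enough UMIs, 0 were apart by the rule, with median log2 ratios of -0.31 in the humanized and -0.21 in the wild-type library. Within the T-free barcodes the share was lowest between 1001 and 1500 UMIs, at 26.4% in the humanized and 26.3% in the wild-type library.

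Barcode names end in N and a number. On platforms that merge bead barcodes into cells it commonly counts the merged beads, but the labels do not define it, so its meaning here is not known. Names ending in N1 made up 272 of 518 humanized shallow T-free barcodes (52.5%, 48.1% to 56.9%) and 27.0% of deep ones, and 263 of 434 wild-type shallow ones (60.6%, 55.8% to 65.2%) and 32.2% of deep ones. Among shallow barcodes with T cell UMIs the share was 29.1% (21.9% to 37.1%) in the humanized and 42.7% (32.3% to 53.6%) in the wild-type library. The shallow T-free barcodes were thus above them in N1 share, with intervals that did not overlap, although the medians of the barcodes with T cell UMIs were as low, at 1501.5 in the humanized and 1627 in the wild-type library.

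**Figure D3:**
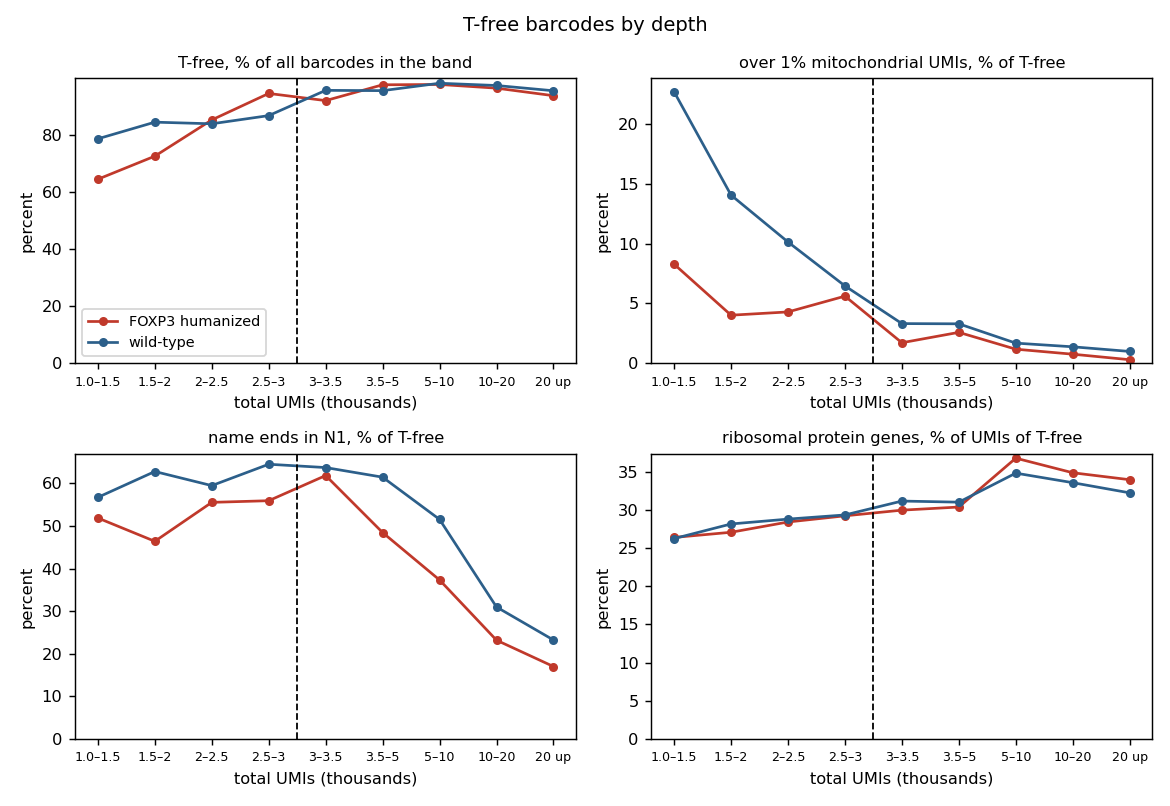
Percentages by depth band (axis in units of 1000 total UMIs) for the humanized library (red) and the wild-type library (blue): T-free barcodes among all barcodes, T-free barcodes over 1% mitochondrial UMIs, T-free barcodes whose name ends in N1, and ribosomal protein genes among the UMIs of T-free barcodes. The dashed line marks 3000 UMIs; below it, mitochondrial-rich barcodes reach 8.27% in the humanized and 22.7% in the wild-type library, and ribosomal protein shares are lowest.

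Programmes that describe the state of a cell were close to the deep level. Metallothionein genes, which bind metal ions, had log2 ratios of -0.09 (-0.13 to -0.05) in the humanized and -0.01 (-0.05 to 0.03) in the wild-type library, and Mt1 had 4563 CPM in shallow and 4705 CPM in deep humanized barcodes, and 5024 CPM in shallow and 4990 CPM in deep wild-type barcodes. S phase genes had 0.06 in the humanized and -0.01 in the wild-type library, and genes of G2 and mitosis -0.11 and -0.12. Glycolysis and hypoxia genes had 0.23 and 0.14, nuclear genes of oxidative phosphorylation -0.12 and -0.16, heat shock genes 0.28 and 0.17, integrated stress response genes 0.28 and 0.11, and p53 targets 0.22 and 0.26. MHC class I genes, which present peptides on nearly all cells, had 0.15 and 0.17, and actin cytoskeleton genes -0.02 and -0.06. Over these 10 lists 0 genes passed the rule in both libraries, against 0.32% higher and 0% lower of all genes measured, so nothing is read from that 0.

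Immediate-early genes, switched on within minutes of a stimulus, were somewhat above the deep level. Their summed log2 ratio was 0.48 (0.44 to 0.52) in the humanized and 0.25 (0.19 to 0.30) in the wild-type library. The wild-type value was no higher than that of p53 targets, at 0.26. The median log2 ratio over 14 immediate-early genes, a different measure, was 0.59 in the humanized and 0.43 in the wild-type library, and 0 of them passed the rule. Fos had 0.94 (0.72 to 1.14) in the humanized and 0.71 (0.41 to 1.00) in the wild-type library, and Junb 0.96 (0.77 to 1.14) and 0.55 (0.29 to 0.81). The type I interferon list, of antiviral response genes, had 0.95 (0.81 to 1.09) in the humanized and 0.61 (0.45 to 0.77) in the wild-type library over its summed UMIs. Bst2, which tethers budding virus to the membrane, had 0.60 (0.39 to 0.80) in the humanized and 0.61 (0.41 to 0.82) in the wild-type library. Isg15, a ubiquitin-like modifier, had 1.70 (1.21 to 2.16) and 0.48 (-0.26 to 1.12).

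Genes listed for the tumour line were near the level of the deep barcodes of their own library. Apobec1, a cytidine deaminase of intestinal epithelium, had 88.5 CPM in shallow and 88.2 CPM in deep humanized barcodes, and 228 CPM in shallow and 240 CPM in deep wild-type ones. Adam2, a member of a family of membrane proteases first known from sperm, had 32.7 CPM in shallow and 34.5 CPM in deep humanized barcodes, and 110 CPM in shallow and 114 CPM in deep wild-type ones. The libraries thus differed in both genes in the same way at both depths. Krt8 and Epcam, defining genes of simple epithelium, had 0 UMIs in the shallow T-free barcodes of both libraries. The stromal list had log2 ratios of 0.46 (0.30 to 0.63) in the humanized and 0.91 (0.73 to 1.08) in the wild-type library. Col1a1 was the single gene past the rule among its 4 genes with enough UMIs. It had enough only through the shallow T-free barcodes, where it is high.

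**Figure D4:**
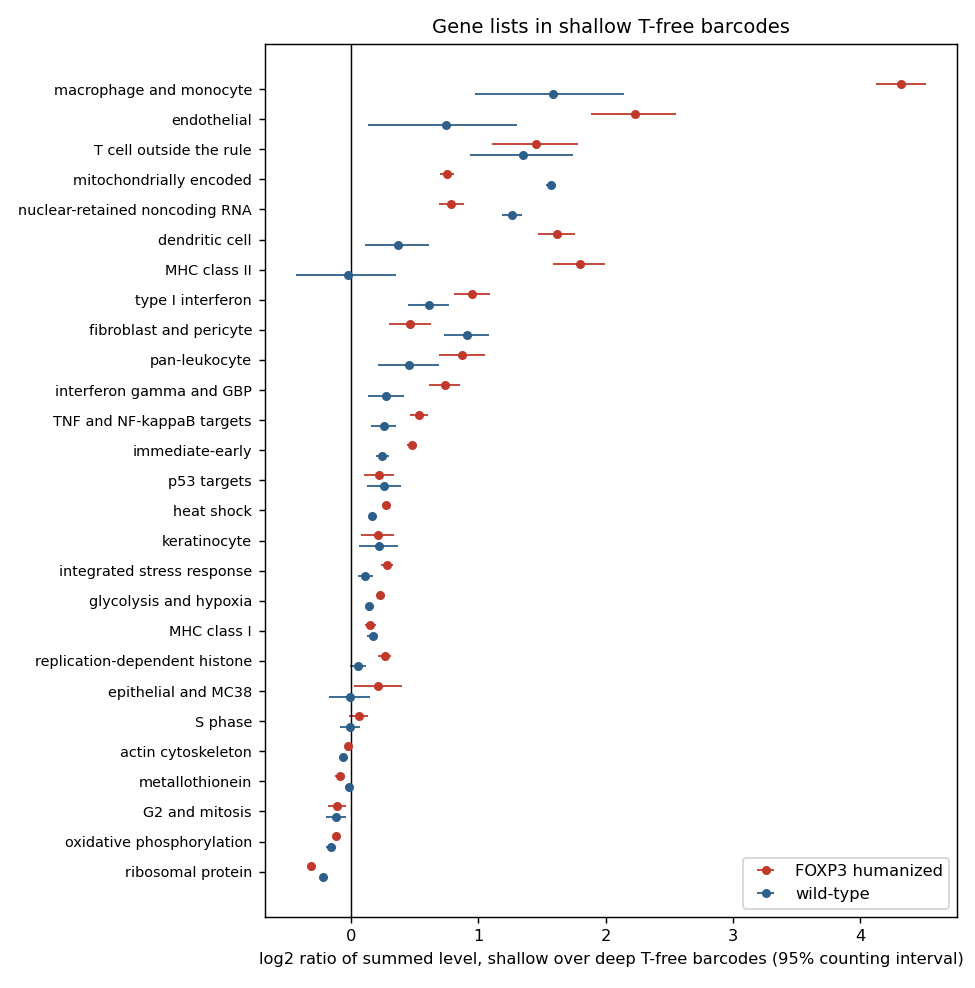
Log2 ratio of each gene list's summed level in shallow over deep T-free barcodes, humanized library (red, above) and wild-type library (blue, below), with 95% counting intervals. Lists shown have at least 50 UMIs in the shallow T-free barcodes of both libraries, plus the macrophage and monocyte list and the endothelial list; state programmes lie near 0, the mitochondrial list at 0.76 in the humanized and 1.57 in the wild-type library, and the macrophage and monocyte list at 4.32 and 1.59.

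The macrophage and monocyte list rested on a few barcodes. It had 250 UMIs in 24 humanized shallow T-free barcodes, 86 of them in 1, or 240 CPM, against 1656 UMIs over all 9547 deep ones (log2 ratio 4.32, 4.13 to 4.52). In the wild-type library it had 26 UMIs in 10 shallow barcodes and 31.9 CPM in shallow against 10.6 CPM in deep ones (1.59, 0.97 to 2.15). At least 10 UMIs of this list were found in 7 of 518 humanized shallow T-free barcodes (1.35%, 0.545% to 2.76%) and in 6 of 9547 deep ones (0.0628%, 0.0231% to 0.137%). In the wild-type library they were found in 1 of 434 shallow (0.230%, 0.00583% to 1.28%) and 3 of 6610 deep ones (0.0454%, 0.00936% to 0.133%). C1qa and Adgre1, defining genes of mature macrophages, had 0 UMIs in the shallow T-free barcodes of both libraries.

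Lyz2 had 33 UMIs in 4 humanized shallow T-free barcodes, 23 of them in 1, and 0 in wild-type ones. Il1b had 65 UMIs in 7 humanized barcodes, with 30 in the highest and 17 in the next, and 0 in wild-type ones. H2-Aa had 23 UMIs in 4 humanized barcodes, 13 of them in 1, and 6 UMIs in 5 wild-type barcodes. In 148 humanized shallow barcodes with T cell UMIs, which should lack them, Lyz2 and Il1b had 0 UMIs and H2-Aa 1. A count of 0 in 148 allows a share of up to 2.46%. In humanized shallow T-free barcodes the share was 0.772% with Lyz2 and 1.35% with Il1b. The shares of barcodes with a UMI could thus not be told apart from background at this number of barcodes. Summed levels in humanized shallow T-free barcodes were 31.7 CPM (21.8 to 44.6) for Lyz2 and 62.5 CPM (48.2 to 79.7) for Il1b. In the 148 they were 0 CPM with an upper limit of 15.6 CPM. The highest barcodes carried much of both sums.

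Igkc differed from these. It had 742 UMIs in 15 humanized shallow T-free barcodes, but 728 of them lay in 1 barcode and the other 14 barcodes had 1 UMI each. The share with Igkc was 2.90% (1.63% to 4.73%) in shallow T-free barcodes, 4.05% in shallow barcodes with T cell UMIs and 9.81% in deep T-free ones, and 1.16% in shallow and 0.848% in deep T-free barcodes once thinned to 1000 UMIs. A share at or below that of T cells is read here as background, so apart from 1 barcode Igkc marked no shallow T-free barcode. In the wild-type library Igkc had 0 UMIs in shallow and 2 in deep T-free barcodes. The humanized deep T-free barcodes held 6196 UMIs of Igkc, 5129 of them in 1 barcode.

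At least 3 UMIs of the 5 markers were found in 8 humanized shallow T-free barcodes and in 67 humanized deep ones. A fixed 3 UMIs is a larger part of a shallow barcode than of a deep one, so marker levels are not compared between the 8 and the 67. S100a6, a calcium-binding protein high in the rest of both libraries, had 7795 CPM in the 8, against 17154 CPM in shallow T-free barcodes with none of the markers. In the 67 deep barcodes S100a6 had 22152 CPM, against 21345 CPM in deep ones with none. S100a6 was thus lower in the 8 than in the other shallow barcodes, and about as high in the 67 as in the other deep barcodes. The 14 humanized shallow T-free barcodes with exactly 1 marker UMI had 0 UMIs of the macrophage and monocyte list and 19634 CPM of S100a6. No wild-type shallow T-free barcode had 3 or more marker UMIs, and 36 wild-type deep ones did, with 23231 CPM of S100a6.

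Clustering the 952 barcodes alone gave 6 subclusters, described by their leading genes without a test. Subcluster 1, of 355 barcodes, was led by the matrix genes Col3a1 and Sparc, and subcluster 2, of 253, by the cell cycle genes Ccna2 and Ube2c. Subcluster 3, of 182, was led by Cacybp, Herpud1 and Asns, of which Herpud1 and Asns belong to the unfolded protein and amino acid responses. Subcluster 4, of 108, was led by Gm41609, Cmss1 and Lrrc8d with mt-Co1, and held 48 of the 92 shallow T-free barcodes over 1% mitochondrial UMIs; subcluster 1 held 41 of them. Subcluster 5, of 39, was led by the interferon-induced Ifit3 and Isg15. No subcluster of these 5 reached 3 markers of a cell type, so they carry no name.

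Subcluster 6 had 15 barcodes, 12 of them from the humanized and 3 from the wild-type library, and was led by Cd74, Ccl5, Fabp5, Srgn and Plac8. By the count of leading markers (7 of the macrophage and monocyte list among 50) it would be called macrophage and monocyte-like, but its barcodes were mixed. At least 10 UMIs of that list were in 7 of the 15, and 4 had 0. Tyrobp, an adaptor of myeloid and NK cell receptors, was found in 8, Srgn, a proteoglycan of secretory granules, in 11, Cd74, the MHC class II invariant chain, in 7 and Ptprc in 5. The name is therefore not used. Its leukocyte list came to 5156 CPM, S100a6 to 6403 CPM against 17100 CPM in the other 937 shallow T-free barcodes, and Mt1 to 1289 CPM against 4810 CPM. Only 2 of the 15 names end in N1, and the highest mitochondrial share was 0.677%.

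The single barcodes of subcluster 6, chosen after their values were seen, held markers of several leukocytes. A humanized barcode of 1717 UMIs had 30 UMIs of Il1b, 23 of Lyz2 and 9 of Plac8, all of monocytes. Another, of 1040 UMIs, had 66 UMIs of Cd74 and 13 of H2-Aa. Ccr7, the receptor that guides dendritic cells to lymph nodes, had 11, 17 and 23 UMIs in 3 humanized barcodes, which also had 7, 14 and 5 UMIs of Fscn1, an actin-bundling protein of mature dendritic cells. One of 1459 UMIs from the humanized library had 39 UMIs of Ccl5, 13 of Nkg7 and 5 of Gzma, which cytotoxic lymphocytes express. A wild-type barcode of 1802 UMIs had 7 UMIs of Tyrobp, 3 of Nkg7 and 2 of Ncr1, an NK cell receptor. A humanized barcode of 1522 UMIs and a wild-type one of 1026 UMIs had 12 and 10 UMIs of T cell genes outside the rule, such as Icos and Cd2 in the humanized one and Cd247 and Lat in the wild-type one. That list came to 72.1 CPM in shallow and 26.3 CPM in deep T-free barcodes of the humanized library, and 64.9 CPM in shallow and 25.4 CPM in deep ones of the wild-type library, against 5128 CPM in humanized and 6361 CPM in wild-type shallow barcodes with T cell UMIs. At least 3 UMIs of it were in 5 of 518 humanized and 3 of 434 wild-type shallow T-free barcodes.

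**Figure D5:**
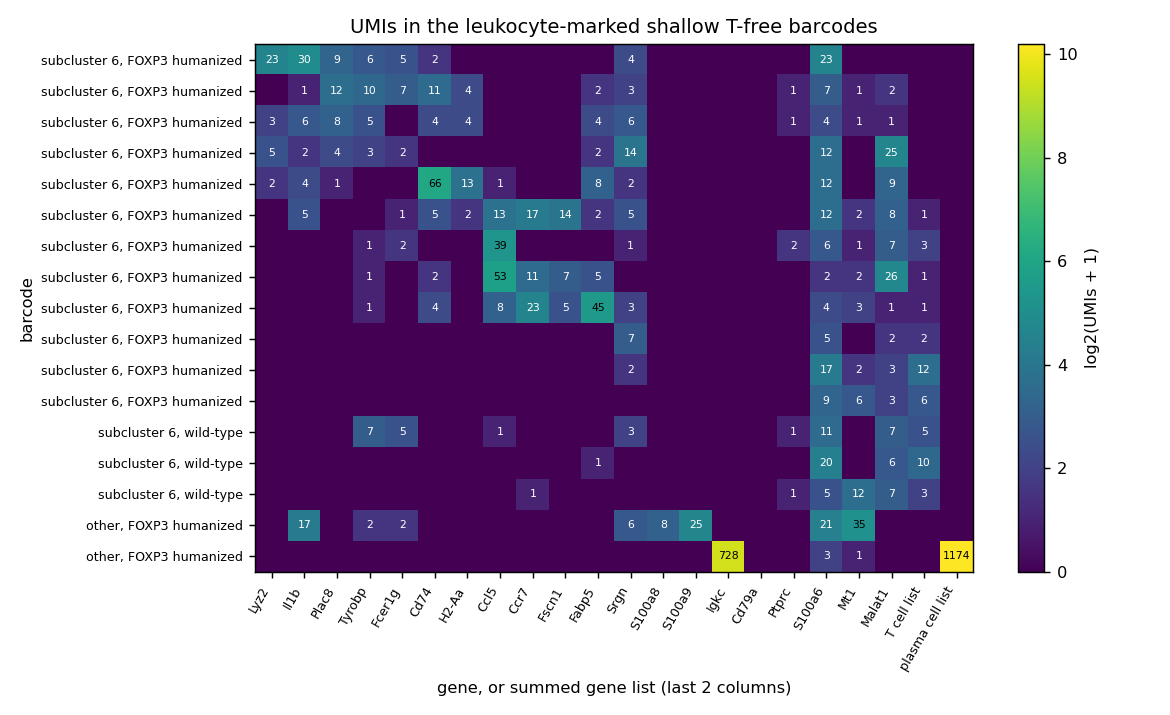
UMIs of selected genes, and of the T cell list outside the rule and the plasma cell list (last 2 columns), in the 15 barcodes of subcluster 6 and in 2 other humanized shallow T-free barcodes, 1 barcode per row, humanized above wild-type in subcluster 6. Colour gives log2(UMIs + 1) and cells with a number have at least 1 UMI; the rows fall into barcodes with Lyz2 and Il1b, barcodes with Ccr7 and Fscn1, and barcodes with few of either, and the bottom row has 728 UMIs of Igkc.

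Other cell types appeared as 1 or 2 barcodes outside subcluster 6, also chosen after their values were seen. A humanized barcode of 1648 UMIs and 337 genes had 728 UMIs of Igkc, 419 of the heavy chain gene Ighg2b, 13 of Jchain, which joins antibody chains, and 7 of Mzb1, and the plasma cell list made up 71.2% of its UMIs. In 1 of 1332 UMIs, also humanized, were 25 UMIs of S100a9, 8 of S100a8, 7 of G0s2 and 17 of Il1b, genes of neutrophils. The humanized barcode with most endothelial UMIs, of 2801 UMIs in all, had 16 UMIs of Plvap, 6 of Cdh5 and 6 of Esam, all of blood vessel endothelium, and 39 of the 68 Igfbp7 UMIs. A wild-type barcode of 1834 UMIs had 18 UMIs of Col1a1, 16 of Col1a2 and 11 of Col3a1. The B cell list had 36 UMIs in humanized shallow T-free barcodes, all from Ebf1, and 40 in wild-type ones, 37 of them from Ebf1, with at most 2 UMIs in any barcode.

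Between genotypes, the shallow T-free barcodes differed in a small part of the genes, in 1 library each. Among the 4594 genes with 50 UMIs or more in the shallow T-free barcodes of the 2 libraries together, a log2 ratio of 1 or more was found for 35 (0.762%) and of -1 or less for 102 (2.22%), humanized over wild-type, with intervals that excluded 0. Of these 137 genes, 17 were also at least 2-fold apart the same way between the deep T-free barcodes of the same libraries, and 123 had the same sign there. Since each genotype was 1 library, genotype and library cannot be told apart.

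Of the 9 higher genes given here, Ccl5 and Cd74 had 100 UMIs or more in the 2 libraries together. Both of these, and Fabp5, Ccr7, Srgn, Il1b and Hbegf, passed the limit of 50 UMIs through the humanized library alone, where they are high. Fabp5, a fatty acid-binding protein, had 71 UMIs in humanized and 1 in wild-type shallow T-free barcodes (log2 ratio 5.80, 3.28 to 11.12), 63.4% of the 71 in 1 barcode. Ccr7 had 51 and 1, Ccl5 117 and 5, Srgn 54 and 3 and Cd74 101 and 12 UMIs in humanized and wild-type ones. Il1b had 65 and 0 UMIs, and the counting interval of its log2 ratio began at 3.75. Mars1, methionyl-tRNA synthetase, was spread over many barcodes, with 48 UMIs in 47 humanized and 9 UMIs in 9 wild-type barcodes (2.07, 1.02 to 3.28), and a log2 ratio of 0.84 between the deep barcodes. Hbegf, a growth factor of the EGF family, had 65 and 14 UMIs (1.87) and Vps4b, an ATPase of membrane scission, 45 and 10 (1.82). Between the deep barcodes the log2 ratio pointed the other way for Ccl5 (-0.90), Cd74 (-0.60) and Vps4b (-0.26), and was 0.03 for Hbegf. For Srgn, Ccr7, Il1b and Fabp5 it was 0.79, 2.03, 2.91 and 3.75, at no more than 1.28 CPM in the deep barcodes. Without the 8 barcodes with 3 or more marker UMIs, the log2 ratio was -0.22 for Cd74, 5.40 for Fabp5, 4.75 for Ccr7, 4.03 for Ccl5 and 1.89 for Srgn, and Ccr7 and Srgn no longer passed the rule with its limit of 50 UMIs.

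The lower genes included most of the mitochondrially encoded ones. Bc1, a short noncoding RNA known from neurons, had 30 UMIs in humanized and 147 in wild-type shallow T-free barcodes (log2 ratio -2.64, -3.26 to -2.07), and -1.70 between the deep barcodes. Gphn had 245 and 972 UMIs (-2.34, -2.55 to -2.13), and -0.75 between the deep barcodes. Adam2 had 34 and 90 UMIs, with -1.75 between shallow and -1.73 between deep barcodes. Rad51b, of homologous recombination, had 13 and 48 UMIs (-2.23), Grm3, a glutamate receptor, 17 and 47 (-1.82), Snhg9, a noncoding host of a small nucleolar RNA, 29 and 76 (-1.74), and Lrrc8d, a subunit of volume-regulated anion channels, 131 and 328 (-1.67). Etaa1os had 31 and 77 UMIs (-1.66), Camk1d, a calcium-dependent kinase, 103 and 251 (-1.63), and Gkap1, a Golgi kinase anchor, 25 and 60 (-1.61). Bc1, Adam2, Snhg9, Etaa1os and Gkap1 passed the limit of UMIs set for this comparison through the wild-type library alone, where they are high. Of 9 mitochondrially encoded genes with enough UMIs, 8 were lower by the rule, with a median log2 ratio of -1.26 between shallow and -0.43 between deep barcodes. Without barcodes over 1% mitochondrial UMIs, 45 genes were higher and 42 lower among 4162 genes with enough UMIs. Of the 102 genes lower with these barcodes kept in, only 36 were among the 42. Of the 35 higher with them kept in, 29 were among the 45.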

How the data were processed

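Values are unnormalised UMI counts of each gene in each barcode, as deposited; PISA 1.0 wrote the matrices, per the file headers. GRCm39 is the build in the submitters' processing notes. How reads were aligned, annotated and assigned to cells is not given in the sources used here. Gene lists named 22649 of 26172 genes in both libraries; a gene listed in 1 was taken as 0 in the other. No coordinates are given.

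No barcode was removed and no doublet caller was run. UMIs were summed per library and class with Python 3.11.15 and scipy 1.17.1, as CPM with exact Poisson intervals, and ratios had exact conditional intervals, all at 95%. A gene with 0 UMIs was set to 3 counts in a ratio. PCR and capture effects lie outside these intervals. There is 1 library per genotype, so no p-value was computed. Library totals were 147738781 (humanized) and 134214718 (wild-type) UMIs. Clusters are Leiden (leidenalg 0.10.2), resolution 0.5. The calling rule was also run on simulated sums drawn with counting error only, so spread between barcodes was not covered.

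The 952 barcodes, the 19 marker lists and the state lists were chosen with earlier results of these data known. Named genes were the 15 called with the largest smaller ratio of both libraries and, between genotypes, 10 each way, leaving out mitochondrial, ribosomal, predicted, receptor and immunoglobulin segment, haemoglobin and sex-linked genes; 5 markers, Ptprc and Foxp3 were always named, with up to 4 genes of a list by UMIs. A gene that this rule named between genotypes is not reported here. Leaving out barcodes over 1% mitochondrial UMIs or with 3 or more marker UMIs, and leaving out Arhgdib, were chosen after seeing the data.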

Additional observations from a re-analysis of the deposited data

Results flagged for a closer look

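Hbegf, a growth factor of the EGF family, was 0.96 higher on the log2 scale in shallow than in deep T-free barcodes of the humanized library, and its log2 ratio was -0.88 in the wild-type library. Vps4b, an ATPase of membrane scission, had 0.80 in the humanized and -1.29 in the wild-type library. Both are given here because the ratio pointed opposite ways in the 2 libraries; the difference was not tested, and each library is 1 sample. They were found by searching all genes measured for ratios of opposite sign, above a minimum size and with counting intervals that excluded no difference. The pattern itself thus chose them.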

How the results depend on the processing

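The share of shallow T-free barcodes was 2.33% in the humanized and 3.41% in the wild-type library below 2000 UMIs, 6.89% and 7.87% below 4000, and 4.26% in the humanized library with 0 UMIs of more T cell genes required. The mitochondrial share was 0.295% and 0.891% below 2000 UMIs, 0.241% and 0.473% below 4000, 0.280% and 0.657% with more T cell genes required, 0.145% and 0.183% without barcodes over 1%, and 0.496% in the wild-type library at a limit of 10% mitochondrial UMIs. The leukocyte list had 356 CPM in the humanized library below 2000 UMIs, 217 CPM below 4000, 183 and 144 CPM with more T cell genes required, 208 CPM in the humanized library without barcodes with 3 or more marker UMIs, and 100.0 and 36.8 CPM without Arhgdib. The 16 genes higher than in deep barcodes became 52 (and 1 lower) with at least 10 UMIs, 3 with 50, 6 after scaling to the median ratio, 8 after thinning, 3 without each gene's highest barcode and 4 without barcodes over 1% mitochondrial UMIs. With 1 library left out they were 120 to 141, and 2 to 6 lower. Of the 8 genes after thinning, 2 were among the first 16, as were 2 of the 4 without barcodes over 1%. Limits of 2000 and 4000 UMIs gave 16 higher genes each, but only 4 and 6 of these were among the first 16. Between genotypes there were 99 higher and 305 lower genes at 20 UMIs, and 7 and 41 at 100. There were 67 lower below 2000 UMIs and 42 without barcodes over 1%. Clustering gave 8 subclusters at resolution 1 and 5 at resolution 0.3, and the one led by Cd74 had 15 barcodes each time. At resolution 1 another, of 251 barcodes, reached 3 markers of the stromal list.

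For the named genes, 106 of 196 alternative values of shallow over deep kept their side of the rule, 89 lost it, 35 of these with a ratio still 2-fold or more, and 1 turned: Stard13, to -0.14 without barcodes over 1% mitochondrial UMIs. Between genotypes 165 of 198 kept it, 31 lost it, 28 of these still 2-fold or more, and 2 turned: Ccl5, to -1.33 with more T cell genes required, and Cd74, to -0.22 without barcodes with 3 or more marker UMIs. The turns follow from the barcodes left out. With the higher filters, 13 and 10 of the lost values have the same ratio and only too few UMIs. No paired analysis was possible because each genotype has 1 cDNA library. Depth limits genes under 20 UMIs and shares under 0.710% of humanized or 0.846% of wild-type shallow barcodes.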

Other observations

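Targets of TNF and NF-kappaB had a summed log2 ratio of shallow over deep T-free barcodes of 0.53 (0.46 to 0.60) in the humanized and 0.26 (0.16 to 0.35) in the wild-type library, and 0 of their 11 genes with enough UMIs passed the rule. Cxcl2, a neutrophil-attracting chemokine chosen after its values were seen, had too few UMIs for that rule. It had 22 UMIs in 7 humanized shallow T-free barcodes (21.2 CPM, against 1.84 CPM in deep ones) and 13 UMIs in 4 wild-type ones (15.9 CPM, against 1.12 CPM in deep ones), with 61.5% of the 13 in 1 barcode. Genes induced by interferon gamma, among them the guanylate-binding proteins, had 0.73 (0.61 to 0.86) in the humanized and 0.28 (0.13 to 0.42) in the wild-type library, and 0 of 6 passed. The endothelial list had 78 UMIs in 18 humanized shallow T-free barcodes, 45 of them in 1, and 26 UMIs in 23 wild-type ones with at most 3 in any.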
